A study of Mus musculus with 21 samples.

Results

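Of 13202 genes measured in mouse CD8 T cell cultures, 163 were enriched where OT-I T cells shared the culture with melanoma cells of the B16-F10 line, and these tumour-enriched genes are described here with the level each one had when the peptide antigen was given again. Members were chosen by their values: the mean over the 3 OT-I acute libraries was at least 5 RPKM (read number relative to how long the gene is and how deep the library is) and at least 20 times the mean of each of the 5 groups cultured without tumour cells. The pigment cell genes Pmel, Mlana, Tyrp1, Tyr, Dct, Mitf, Sox10, Mc1r and Gpnmb were left out by the same rule and serve as a reference, and all 9 would have passed it. The OT-I acute level and its distance from the other groups are therefore how the set was selected, not a result, and only the OT-I chronic libraries were not used by the rule.

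The study held 21 libraries in 7 groups of 3, all harvested on day 8 after an initial stimulation of 48 h. The OT-I groups were CD8 T cells of OT-I TCR transgenic mice, whose receptor recognises the ovalbumin peptide SIINFEKL. They were first activated with that peptide and then co-cultured with B16-F10 cells, an established C57BL/6 mouse melanoma line, that had been pretreated with interferon-γ to raise their MHC class I. Peptide was added to the co-culture again every 48 h in the chronic group and was left out in the acute group, so tumour cells and interferon-γ pretreatment were common to both. The groups without tumour cells were C57BL/6 CD8 T cells activated with plate-bound anti-CD3 and anti-CD28. Their chronic groups met plate-bound anti-CD3 again and their acute groups did not, in a polyclonal pair (polyclonal acute and polyclonal chronic) and a vehicle pair (vehicle acute and vehicle chronic). The remaining group was chronic with 10 mM N-acetylcysteine, an antioxidant, from 48 h on (NAC chronic). All cultures held interleukin 2. T cells had been purified untouched from lymph node and spleen, and the labels name no step that parts T cells from tumour cells before RNA was taken. B16-F10 is 1 cell line, and the labels do not say that libraries of a group came from separate mice or cultures. P-values therefore reflect only how far all 21 libraries spread about their group means, which may be technical. In the main fit each gene has the same standard error (SE) in every comparison. It includes the spread in cultures without tumour cells, so a member not called may still differ clearly between the OT-I libraries.

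Melanoma cells keep much of the programme of the melanocyte, a pigment cell that arises from the neural crest. In that programme the transcription factor MITF, together with SOX10 and PAX3, switches on genes for melanin synthesis and for the melanosome, the organelle in which melanin is made. Interferon-γ, which activated CD8 T cells secrete, acts on most cell types and induces antigen presentation genes and the CXCR3 ligand chemokines CXCL9, CXCL10 and CXCL11, which attract T cells. Because the libraries are bulk RNA of a mixed culture, fewer cells of a type and less RNA per cell cannot be told apart.

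The labelled cell types were checked against their markers. Summed RPKM of the 9 pigment genes was 7769 to 8066 in OT-I acute libraries, 4618 to 4743 in OT-I chronic libraries and at most 75.5 in any library without tumour cells. Over 9 T cell markers (Cd3e, Cd3d, Cd3g, Cd247, Cd2, Cd5, Lck, Cd8a and Cd8b1) the sum was 1189 to 1494 in OT-I acute, 1050 to 1074 in OT-I chronic and 1592 to 2633 elsewhere, and 1 of these genes was called higher and 6 lower in OT-I chronic. Polyclonal chronic stood apart by its CD8 genes, with Cd8a and Cd8b1 means of 8.48 and 23.0 RPKM against 101 and 267 in polyclonal acute. Sums of B cell markers were 211 to 232 in polyclonal chronic and 3.24 to 14.5 in polyclonal acute. The 3 pan-leukocyte markers summed to 949.0 to 1123 and 950.3 to 980.0. Markers of other cell types were low in both co-cultures: the 6 B cell markers rose from sums of 5.01 to 10.9 to sums of 43.1 to 47.0 (5 of 6 called higher), the 3 measured macrophage markers had sums of 4.76 to 6.98 and 8.12 to 8.88, and the 5 measured fibroblast markers sums of 1.62 to 6.26 and 5.24 to 5.90. Of these, 2 macrophage markers and 1 fibroblast marker were called higher. Both NK cell markers were called higher too, with sums of 1.64 to 3.32 and 10.7 to 12.6, and so was the 1 measured epithelial marker (1.48 to 1.83 and 2.64 to 2.81). Of 4 measured endothelial markers 2 were called lower, with sums of 15.6 to 21.1 and 13.3 to 14.2. None of these markers was at 0 in all OT-I libraries, and their part in the results below was not tested. Reads in genes numbered 13121180 to 25218890 per OT-I library, against 5347355 to 17539278 elsewhere. OT-I acute replicate 3, polyclonal acute replicate 2 and polyclonal chronic replicate 2 stood apart by raised low genes, and values without them are given where they matter.

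Among the members, 23 had an OT-I acute mean under 10 RPKM, 125 lay between 10 and 100, and 15 were at 100 RPKM or above, with a median of 23.5 RPKM. The lowest member rested on 47 reads in its shallowest OT-I acute library, and the median over members of that lowest read number was 974. By that mean the highest members were Mir6236, annotated as a microRNA precursor, the chemokine gene Cxcl10, the melanosome trafficking GTPase gene Rab38, the lipid carrier gene Apoe, the vesicle protein gene Syt4, the tetraspanin gene Cd63, the melanosomal transporter gene Slc45a2 and the prostaglandin D synthase gene Ptgds. Mir6236 varied more between replicates than between groups, with 652, 2770 and 1431 RPKM in OT-I acute and 248, 136 and 5224 RPKM in OT-I chronic. It was not called and is left out of all sums below. Close inside the 5 RPKM limit were Irx5 (5.41), Shox2 (5.51) and Uty (5.59), and just outside it Cdc42ep1 (4.78), Kdm5d (4.43), Hoxd13 (4.21) and Mb21d2 (3.67). Just inside the 20-fold limit were Ifit3b (20.1 times), Hotairm1 (20.1), Shox2 (20.1) and Npr2 (20.7), and just outside it Ifit3 (19.3 times), Meis2 (19.1), Cdr2l (19) and Sspn (19). The members included 3 genes of the Y chromosome, Uty, Ddx3y and Eif2s3y, each at 0.0384 RPKM or less in every library without tumour cells. Xist, the RNA of the inactive X chromosome, was at 0.234 RPKM or less in every OT-I library and at 62.2 to 158.5 RPKM in every other library. The OT-I groups thus differed from the others in sex-linked RNA as well as in tumour cells. For these 3 members the rule cannot tell these differences apart, nor RNA of the OT-I T cells from RNA of the tumour cells.

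**Figure D1:**
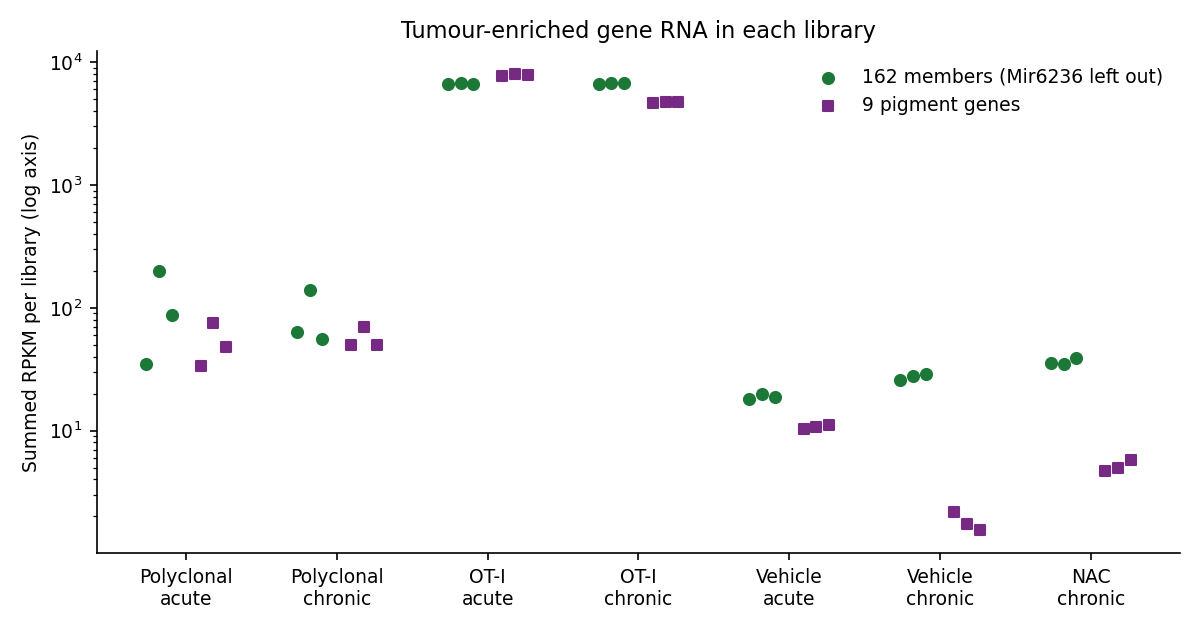
Summed RPKM (log axis) of 162 members (green circles, Mir6236 left out) and of the 9 pigment genes (purple squares) in each of the 3 libraries of 7 groups. Members sum to 6592 to 6822 in all 6 OT-I libraries, while the pigment genes sum to less in OT-I chronic than in OT-I acute.

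The first comparison asked how the tumour-enriched genes differed when the co-culture was given peptide repeatedly. In OT-I chronic libraries 92 members were lower, 23 were higher and 48 did not pass the test (limma on log2(RPKM + 1), adjusted p under 0.05 over all 12630 genes tested). Of all genes tested, 36.2% were called lower and 22.4% higher, against 56.4% and 14.1% of the members. Because the rule kept genes with a high OT-I acute level, nothing is read from that difference in shares. Changes ran from -2.42 for Gjb2 to 3.02 for Cxcl11 on the log2 scale, with a median of -0.49 against -0.12 for all genes. Among the called members 34 were at least 2-fold lower and 5 at least 2-fold higher (2.79% and 2.91% of all genes tested). Libraries of the groups did not overlap for 114 lower and 30 higher members (41.3% and 23.8% of all genes tested), which includes 29 members that were not called.

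How many members pass depends on the rule, the scale and the fit. With the rule applied to the OT-I chronic mean instead, 136 genes passed, of which 51 were higher and 47 lower, with a median of 0.02. Applied to the mean of both groups it took 157 genes, 37 higher and 73 lower, with a median of -0.35. With members chosen on 2 OT-I acute libraries and compared with the library held out, the median was -0.45, -0.46 and -0.49. The held-out library may not be a separate culture, so this does not free the members from their selection on OT-I acute. With the OT-I libraries rescaled to the same level of the 9 pigment genes, the split turned to 60 higher and 34 lower (36.8% and 20.9% of members, against 70.2% and 4.80% of all genes), the median of all genes became 0.48 and 55 members changed sign. With libraries rescaled to a common median, 25 members were higher and 81 lower (27.4% and 27.9% of all genes), with a member median of -0.40. A pseudocount of 0.1 in place of 1 left 7 higher and 34 lower (21.4% and 33.4% of all genes). With only the OT-I libraries in the fit, 29 were higher and 112 lower under either pseudocount (with a pseudocount of 1, 21.2% and 35.7% of all genes), and these held all 115 of the main calls.

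The pigment genes moved apart from one another. Tyr and Pmel, for the rate-limiting enzyme of melanin synthesis and the fibril protein of the melanosome, fell by 1.84 and 1.57 on the log2 scale, and Mitf, Tyrp1 and Dct fell by 1.14, 0.87 and 0.86. Mlana, Gpnmb, Mc1r and Sox10 did not pass the test, with changes of -0.11, 0.05, 0.08 and 0.20. Against that range of pigment gene changes, 131 members lay inside, 28 lay above the highest and 4 lay below the lowest. The members' summed RPKM was 6670 ± 120.5 in OT-I acute and 6744 ± 87.5 in OT-I chronic (SD, n = 3), a ratio of 1.01, whereas that of the pigment genes had a ratio of 0.594 and that of the T cell markers 0.780. Cxcl10 alone carried much of the members' sum in OT-I chronic: without it the remaining 161 members summed to 6336 and 4967 RPKM, a ratio of 0.784.

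**Figure D2:**
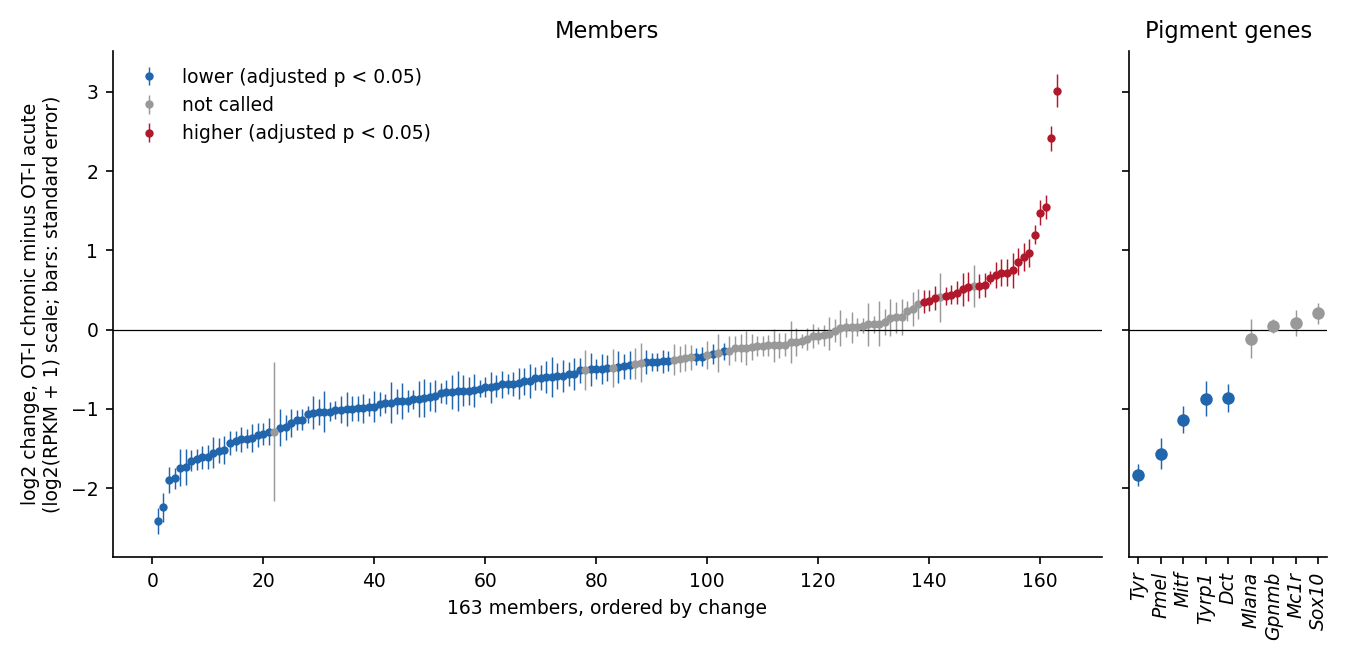
Log2 change of OT-I chronic against OT-I acute with its standard error for the 163 members in order (left) and the 9 pigment genes (right), in blue where lower, red where higher and grey where not called. Members spread from -2.42 to 3.02, and 5 pigment genes lie at or below -0.86 while the other 4 lie between -0.11 and 0.20.

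All 11 members from a list of melanosome and pigment genes were lower in OT-I chronic, with a median of -1.18, and stayed lower with libraries rescaled to a common median. Rescaled to the 9 pigment genes, 6 of the 11 were still called lower, none was called higher, and Cd63 and Mlph changed sign. Of the 23 other tested genes of this list, 14 were lower and 3 higher, which were Tmem163 (1.01), Slc16a6 (0.86) and Aim1 (0.69). These 3 were at 10.9, 13 and 26.1 RPKM in OT-I chronic. Their highest group means without tumour cells were above that, at 26.4, 19 and 54.5 RPKM. The melanosomal transporter gene Slc45a2 had 184, 188 and 179 RPKM in OT-I acute and 66.8, 67.1 and 68.2 RPKM in OT-I chronic (log2 change -1.43, SE 0.15, adjusted p = 1.01e-07). Slc24a5, which encodes a cation exchanger needed for melanin synthesis, had 145, 139 and 157 RPKM in OT-I acute and 47.5, 44.3 and 46 RPKM in OT-I chronic (log2 change -1.66, SE 0.13, adjusted p = 1.51e-09). Tspan10, a tetraspanin gene, had 82.5, 87.3 and 77.5 RPKM in OT-I acute and 29.1, 32.1 and 30 RPKM in OT-I chronic (log2 change -1.41, SE 0.13, adjusted p = 1.11e-08). In none of these genes did the groups come near each other. Rab38, whose GTPase carries tyrosinase family enzymes to melanosomes, had 264, 283 and 264 RPKM in OT-I acute and 145, 148 and 151 RPKM in OT-I chronic (log2 change -0.86, SE 0.24, adjusted p = 0.00481). Ptgds had 159, 181 and 154 RPKM in OT-I acute and 69.9, 70 and 76.3 RPKM in OT-I chronic (log2 change -1.18, SE 0.18, adjusted p = 1.34e-05). The potassium channel gene Kcnj13 was the lowest of the list and had 12.9, 11.8 and 12 RPKM in OT-I acute and 1.72, 1.7 and 1.98 RPKM in OT-I chronic (log2 change -2.25, SE 0.19, adjusted p = 3.17e-09). The list's smallest falls were those of Cd63 (-0.56) and of Mlph (-0.60), whose product melanophilin links pigment granules to a myosin motor. Between them lay Gpr143 (-0.88), a melanosomal receptor gene, Rragd (-0.99), a lysosomal signalling GTPase gene, and Cited1 (-1.24), a transcriptional cofactor gene.

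RefSeq promoter windows (GRCm38.p6) were at hand for 119 of the 163 members, 73.0%, too few to count motifs over the set, so no share of members is given. Stretches of 250 bases upstream of the start are shown for 3 of the falling melanosome members because each holds TCATGTG, the M-box form of the E-box to which MITF is known to bind. The capitals mark it, read on the opposite strand as CACATGA. Over all 32851 windows of 300 bases in the table, 3.77% hold this motif on either strand. It begins 112 bases before the start of Kcnj13 (chr1:87394730-87394979, minus strand), 13 before that of Slc24a5 (chr2:125067877-125068126, plus strand) and 21 before that of Tspan10 (chr11:120442381-120442630, plus strand). The windows at hand for Cited1, Ptgds, Rragd, Mlph and Cd63, also lower members of the list, do not hold it. In Slc24a5 it overlaps a match to TGANTCA, the AP-1 motif, which 7.81% of all windows hold.
Kcnj13: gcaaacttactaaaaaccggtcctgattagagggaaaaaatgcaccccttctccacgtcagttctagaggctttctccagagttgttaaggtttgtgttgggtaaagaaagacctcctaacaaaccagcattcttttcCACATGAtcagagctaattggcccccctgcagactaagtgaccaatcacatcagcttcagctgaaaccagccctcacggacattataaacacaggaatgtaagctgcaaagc
Slc24a5: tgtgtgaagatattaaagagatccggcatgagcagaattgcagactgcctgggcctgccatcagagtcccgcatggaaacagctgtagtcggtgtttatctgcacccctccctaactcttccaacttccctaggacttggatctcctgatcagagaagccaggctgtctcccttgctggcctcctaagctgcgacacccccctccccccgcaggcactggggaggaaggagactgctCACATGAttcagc
Tspan10: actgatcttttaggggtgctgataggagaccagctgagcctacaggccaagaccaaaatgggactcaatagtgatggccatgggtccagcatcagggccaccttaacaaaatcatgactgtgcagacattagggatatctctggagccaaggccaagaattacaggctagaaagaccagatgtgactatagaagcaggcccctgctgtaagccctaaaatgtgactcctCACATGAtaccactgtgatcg
A match is a description of these letters and was not tested as a binding site.

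Interferon-responsive genes held the highest rises. From a list of interferon-γ-induced genes, 3 of 4 members were higher and none lower. Of the 51 other tested genes of the list 37 were higher and 4 lower. Some of these others were high in T cells without tumour cells, such as Cd74, Psmb8 and Gbp2. Their highest group means there were 646, 517 and 113 RPKM, whereas that of Cxcl9 was 0.43. Under both rescalings the same 4 members had positive changes. The chemokine gene Cxcl10 had 327, 347 and 326 RPKM in OT-I acute and 1747, 1775 and 1809 RPKM in OT-I chronic (log2 change 2.41, SE 0.16, adjusted p = 8.96e-11). Cxcl11, which RefSeq annotates as a transcribed pseudogene in this mouse reference and whose relatives encode ligands of CXCR3, had 19.1, 20.6 and 18.2 RPKM in OT-I acute and 162, 162 and 165 RPKM in OT-I chronic (log2 change 3.02, SE 0.21, adjusted p = 2.91e-10). Each replicate of OT-I chronic was above every OT-I acute replicate, by 5.33-fold in the mean for Cxcl10 and 8.44-fold for Cxcl11. The complement gene C4b had 23.9, 23.3 and 25.1 RPKM in OT-I acute and 39.7, 40.5 and 38.2 RPKM in OT-I chronic (log2 change 0.69, SE 0.16, adjusted p = 0.00111), while C2, also of complement, had 134, 141 and 141 RPKM in OT-I acute and 182, 183 and 186 RPKM in OT-I chronic and was not called (log2 change 0.40, SE 0.31, adjusted p = 0.28) although the groups did not overlap. Among 10 members grouped as interferon-responsive after their values were seen, 7 were higher, none lower and 3 not called. Beside the genes above these were Apol10b, an apolipoprotein L gene, at 22.6, 24.5 and 23.2 RPKM in OT-I acute and 69.7, 72.4 and 69.5 RPKM in OT-I chronic (log2 change 1.55, SE 0.15, adjusted p = 4.1e-08), and Phf11d, Tlr3 and Ifit3b with changes of 0.86, 0.55 and 0.37. The other two apolipoprotein L genes, Apol9a and Apol9b, are near-identical copies whose reads the counting could split. They were not called, with changes of 0.16 and 0.02.

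The upstream stretch of Cxcl10 (chr5:92348890-92349139, minus strand) is shown because this gene had the highest level of the called members. It holds 1 match to TTTC, any 2 bases and TTTC, the core of the interferon-stimulated response element bound by IRF factors, 213 bases before the start, in capitals and read on the opposite strand. Of all windows 3.44% hold it, and this motif was added after the data were seen.
Cxcl10: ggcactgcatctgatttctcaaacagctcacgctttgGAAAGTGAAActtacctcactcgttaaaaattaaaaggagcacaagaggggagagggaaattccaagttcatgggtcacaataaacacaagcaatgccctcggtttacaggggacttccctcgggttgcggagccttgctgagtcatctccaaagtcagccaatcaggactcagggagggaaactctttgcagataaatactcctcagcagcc

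**Figure D3:**
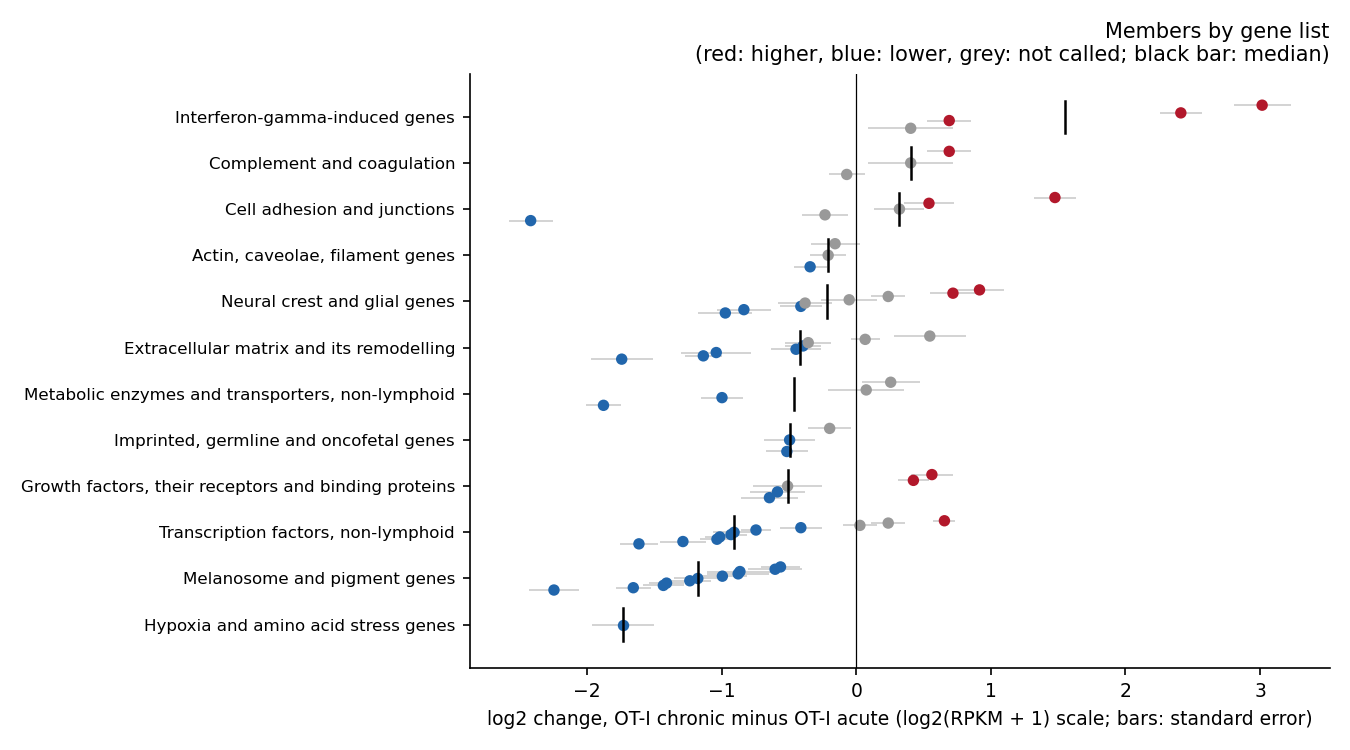
Log2 change with its standard error for each member in the 12 gene lists (red higher, blue lower, grey not called, black bar the median). All 11 melanosome members lie left of 0 and 3 of 4 interferon-γ-induced members are called to its right, while adhesion members lie on both sides.

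Genes of cell contact and matrix did not share a direction. Of 5 adhesion and junction members 2 were higher, 1 was lower and 2 were not called. Gjb2, which encodes the gap junction protein connexin 26, had the largest fall of any member on the log2(RPKM + 1) scale. It had 44.7, 42.2 and 44.6 RPKM in OT-I acute and 6.66, 7.88 and 7.66 RPKM in OT-I chronic (log2 change -2.42, SE 0.16, adjusted p = 1.53e-10). As a ratio of mean RPKM, acute over chronic, Kcnj13 fell more (6.82 against 5.92 for Gjb2). Mcam, for the adhesion molecule CD146 first found on melanoma, had 23.3, 23.5 and 25.7 RPKM in OT-I acute and 68.3, 70.8 and 67.7 RPKM in OT-I chronic (log2 change 1.48, SE 0.16, adjusted p = 1.31e-07). Another connexin gene, Gjc3, was higher (0.54), and Cadm1 and the cadherin gene Cdh19 were not called (0.32 and -0.23). Of 35 other tested genes of the list, 8 were higher and 7 lower, and with libraries rescaled to the pigment genes 4 of the 5 members were higher and 1 lower. In the extracellular matrix list 5 of 8 members were lower and none higher, beside 14 higher and 9 lower of 59 others. With libraries rescaled to the pigment genes the 8 split into 2 higher and 2 lower. The elastic fibre gene Fbln5 had 23.4, 23.3 and 25.9 RPKM in OT-I acute and 6.43, 6.81 and 6.32 RPKM in OT-I chronic (log2 change -1.74, SE 0.23, adjusted p = 2.2e-06). Sparcl1, a matricellular gene, had 42.5, 42.2 and 44.6 RPKM in OT-I acute and 20.6, 20.8 and 19.9 RPKM in OT-I chronic (log2 change -1.04, SE 0.26, adjusted p = 0.00187). Its relative Sparc had 95, 100.4 and 98.1 RPKM in OT-I acute and 140.5, 147 and 142 RPKM in OT-I chronic and did not overlap, yet was not called in the fit of all libraries (log2 change 0.55, SE 0.27, adjusted p = 0.0859). The collagen chaperone gene Serpinh1 had 156, 158 and 143 RPKM in OT-I acute and 157, 162 and 160 RPKM in OT-I chronic, which overlap. Timp3, Mmp14 and Lamb2, for a protease inhibitor, a membrane protease and a laminin chain, were lower (-1.14, -0.45 and -0.40).

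Among growth factor and receptor members, 2 of 5 were higher and 2 lower. Met, the hepatocyte growth factor receptor gene, had 52.8, 46.7 and 61.2 RPKM in OT-I acute and 33.8, 35.2 and 32.1 RPKM in OT-I chronic (log2 change -0.64, SE 0.21, adjusted p = 0.0142). The collagen receptor gene Ddr2 was lower (-0.59), and the phagocytic receptor gene Mertk was not called (-0.51). The Wnt pathway modulator gene Dkk3 and the guidance cue gene Sema3b were higher (0.56 and 0.42). Rescaled to the pigment genes, Met and Ddr2 turned slightly positive, at 0.02 and 0.06. Of 59 other tested genes of the list 12 were higher and 16 lower. Coagulation and complement members numbered 3, of which C4b was higher and C2 and the tissue factor gene F3 (-0.07) were not called. Of 14 others of that list 9 were higher and 1 lower, and rescaled to the pigment genes all 3 members were higher.

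Most transcription factor members were lower. Of 11 in the list of factors of non-lymphoid cells 8 were lower and 1 higher, with a median of -0.91, beside 12 lower and 5 higher of 40 other tested genes. With libraries rescaled to the pigment genes 5 were lower and 3 higher, and Pax3 changed sign. The homeobox gene Hoxb9 had 5.72, 5.79 and 5.9 RPKM in OT-I acute and 1.2, 1.26 and 1.21 RPKM in OT-I chronic (log2 change -1.61, SE 0.14, adjusted p = 8.39e-09). Wwtr1, which encodes the Hippo pathway effector TAZ, had 14.5, 13.8 and 16.5 RPKM in OT-I acute and 5.4, 5.71 and 5.43 RPKM in OT-I chronic (log2 change -1.29, SE 0.17, adjusted p = 2.15e-06). Iroquois genes Irx5 and Irx3 were lower (-1.03 and -0.93), as were the forkhead gene Foxc1 (-1.01), the homeobox genes Alx1 (-0.91) and Hoxa10 (-0.74), and Pax3 (-0.41), a regulator of the melanocyte lineage. Tbx2, a T-box repressor gene of the melanocyte lineage, went the other way and had 21, 23.1 and 21.2 RPKM in OT-I acute and 34.1, 35.4 and 34.9 RPKM in OT-I chronic (log2 change 0.66, SE 0.08, adjusted p = 9.83e-07). Sox11 and Tfap2a were not called (0.03 and 0.24). Of factors outside the list, named after their values were seen, Klf15 was lower (-1.14) and Dmrta2 was not called (-0.08).

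**Figure D4:**
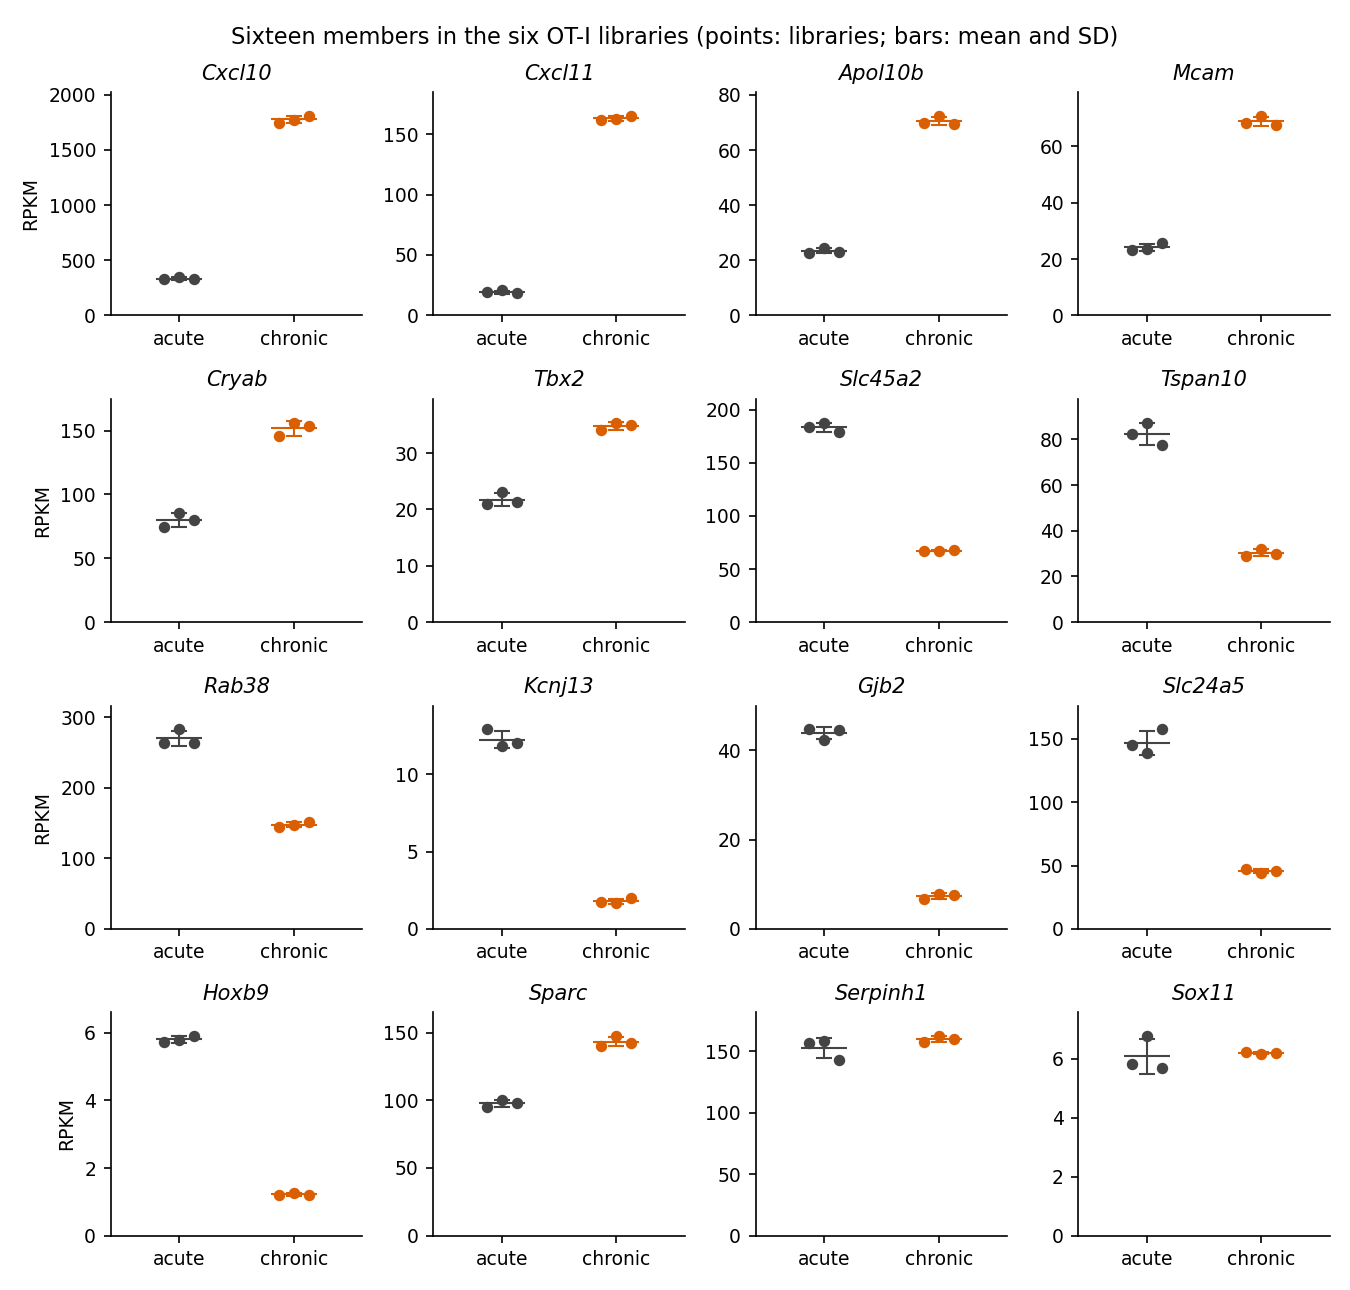
RPKM of 16 members in the 3 OT-I acute (grey) and 3 OT-I chronic (orange) libraries, with mean and SD, on axes that start at 0. Points of Cxcl10, Cxcl11, Apol10b, Mcam, Cryab, Tbx2 and Sparc are higher in every chronic library, those of Serpinh1 and Sox11 overlap, and those of the other 7 genes are lower.

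Neural crest and glial members split, with 2 of 8 higher, 3 lower and 3 not called, and 7 higher and 5 lower of the 21 others. With libraries rescaled to the pigment genes 4 of the 8 were higher and none lower, with a median of 0.46, and 3 changed sign. Apoe had 272, 299.9 and 221 RPKM in OT-I acute and 128, 133 and 138 RPKM in OT-I chronic (log2 change -0.97, SE 0.20, adjusted p = 0.000343), and the calcium-binding protein gene S100b was lower too (-0.83). Cryab, which encodes the small heat shock protein αB-crystallin, had 74.8, 85.6 and 79.8 RPKM in OT-I acute and 145, 156 and 153 RPKM in OT-I chronic (log2 change 0.92, SE 0.18, adjusted p = 0.00023). Cadm4, an adhesion gene of myelinating glia, was higher (0.72). Syt4 had 241, 233 and 252 RPKM in OT-I acute and 187, 189.7 and 180.3 RPKM in OT-I chronic, which do not overlap, and was not called (log2 change -0.38, SE 0.20, adjusted p = 0.109). A group of 11 neuronal and synaptic members put together after values were seen held 7 lower genes and none higher. Lower genes of this group included the vesicle transporter gene Slc6a17, at 17.9 ± 1.34 against 4.13 ± 0.107 RPKM (SD, n = 3), and the synaptic adhesion gene Lrrc4b, at 6.65 ± 0.323 against 1.46 ± 0.184 RPKM. Nrcam, Hap1 and Pianp of this group were not called (-0.05, 0.03 and -0.08). With libraries rescaled to the pigment genes 5 of the 11 were lower and 3 higher. The small heat shock gene Hspb8 was higher (0.35) and Hspb2 was not called (-0.19).

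The remaining lists gave few members. Of 4 metabolic and transport members, Slc6a17 and the nicotinamide methyltransferase gene Nnmt (-1.0) were lower, and Cpe (0.26) and Mgst1 (0.07) were not called. Rescaled to the pigment genes 2 were higher and 2 lower, and of 54 others of the list 14 were higher and 16 lower. The only member among hypoxia and amino acid stress genes was Car6, for a secreted carbonic anhydrase, which had 102, 118 and 102 RPKM in OT-I acute and 31.3, 32 and 31.1 RPKM in OT-I chronic (log2 change -1.74, SE 0.23, adjusted p = 2.13e-06). Of the 39 other tested genes of that list 30 were lower and 3 higher. In the list of imprinted, germline and oncofetal genes, the imprinted members Plagl1 and Sgce were lower (-0.52 and -0.49). Maged1, a melanoma antigen family gene, was not called (-0.20). All 3 turned positive when libraries were rescaled to the pigment genes. Of 18 others 2 were higher and 2 lower. Among actin and caveola members Sdpr, whose product shapes caveolae, was lower (-0.34), and Cald1 and Amotl2 were not called (-0.16 and -0.21). These 3 also turned positive with that rescaling, and of 44 others 14 were higher and 14 lower. Outside any list were 101 members. Of these Cyb5r2, a cytochrome b5 reductase gene, had 16.3, 17.9 and 17.5 RPKM in OT-I acute and 3.86, 3.91 and 3.85 RPKM in OT-I chronic (log2 change -1.9, SE 0.16, adjusted p = 5.95e-09). Sod3, for the extracellular superoxide dismutase, had 7.35, 8.3 and 7.01 RPKM in OT-I acute and 18.2, 18.5 and 19.1 RPKM in OT-I chronic (log2 change 1.2, SE 0.12, adjusted p = 2.79e-08). Vgll3, a cofactor gene of TEAD factors, had 15.5, 13.5 and 17.6 RPKM in OT-I acute and 31.5, 32.7 and 29.2 RPKM in OT-I chronic (log2 change 0.97, SE 0.18, adjusted p = 0.0001). Y-linked Ddx3y and Eif2s3y were not called (0.05 and -0.14), and Uty was lower (-0.34) but positive, at 0.22, after rescaling to the pigment genes.

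In OT-I chronic 107 of the 163 members still met the rule. Of the others, 54 were under 20 times the highest group without tumour cells and 15 were under 5 RPKM. A further 29 genes met the rule only in OT-I chronic, 28 of them called higher and none lower, a direction their choice sets, so they are given as a description. Cxcl9, for a further CXCR3 ligand, had 3.73 ± 0.215 RPKM in OT-I acute and 448 ± 5.89 RPKM in OT-I chronic (SD, n = 3). Ubd, which encodes a ubiquitin-like protein induced by interferon-γ, had 3.18 ± 0.122 and 122.6 ± 3.06 RPKM. The fibronectin gene Fn1 had 17.7 ± 3.76 and 108 ± 11.6 RPKM, and the tubulin gene Tubb3 had 19.5 ± 1.91 and 120.8 ± 2.99 RPKM. Complement genes Serping1 and C1ra had 4.37 ± 0.970 and 9.89 ± 0.216 RPKM in OT-I acute and 42.4 ± 2.30 and 35.2 ± 1.40 RPKM in OT-I chronic. These were chosen after their values were seen.

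**Figure D5:**
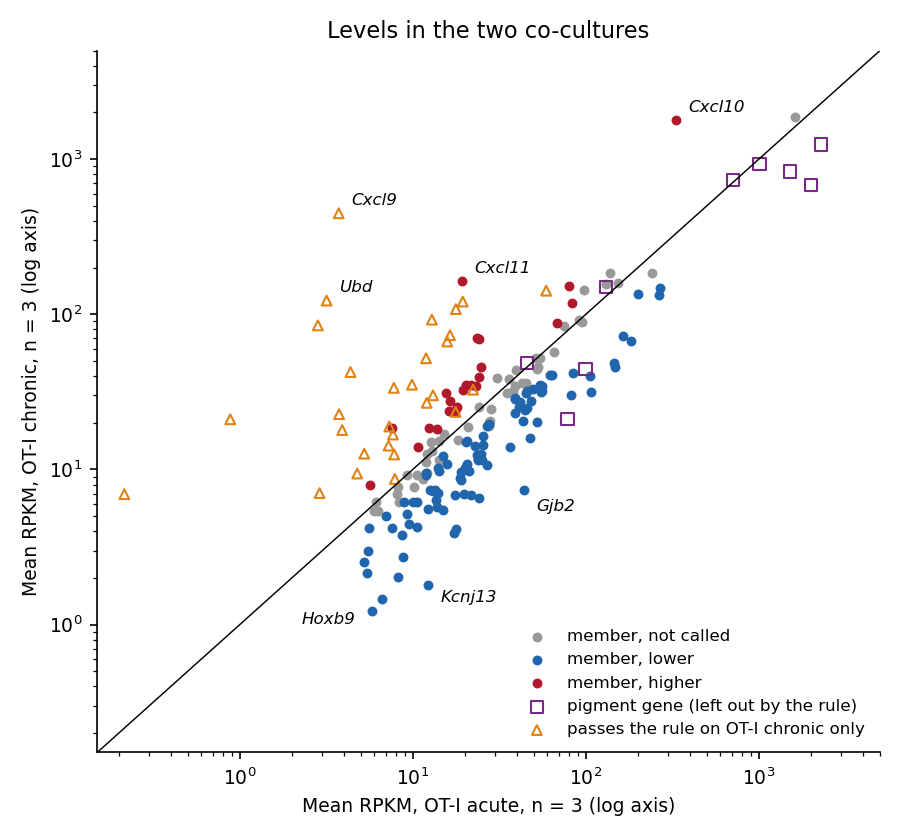
Mean RPKM in OT-I acute against OT-I chronic (log axes, n = 3 each) for members (blue lower, red higher, grey not called), the 9 pigment genes (purple squares) and the 29 genes that meet the rule only in OT-I chronic (orange triangles). The line marks equal levels: Cxcl10, Cxcl11, Cxcl9 and Ubd lie far above it, and Gjb2, Kcnj13 and Hoxb9 far below.

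Traces of member RNA in cultures without tumour cells were small, as the rule requires, but differed between experiments. The rule used these groups, so the counts below are a description. As a share of the OT-I acute sum, members reached 1.61% in polyclonal acute, 1.29% in polyclonal chronic, 0.284% in vehicle acute, 0.415% in vehicle chronic and 0.544% in NAC chronic. The highest other group was polyclonal acute for 124 members and polyclonal chronic for 26. Polyclonal acute replicate 2, the shallowest library, had 85 members at 1 RPKM or more, against 4 and 14 in its group's other libraries. Between chronic and acute, 8 members were higher and 9 lower in the polyclonal pair (28.6% and 35.5% of all genes tested), and 8 were higher and 6 lower in the vehicle pair (24.5% and 34.4%). With the replicate number as a block, 54 members were called in the polyclonal pair in place of 17, 11 higher and 43 lower (29.9% and 38.7% of all genes). Without polyclonal acute replicate 1 the count was 80, 6 higher and 74 lower (26.9% and 39.2%). Without polyclonal chronic replicate 2 it was 52, 6 higher and 46 lower (27.6% and 39%), and without all 3 libraries of raised low genes 39, 16 higher and 23 lower (31.7% and 38.1%). NAC against vehicle in chronic cells called 12 higher and 4 lower (38.5% and 22.6%). With only each experiment's own libraries in the fit the polyclonal count was 5, with 3 higher and 2 lower (24.2% and 29.3% of all genes). The vehicle count was then 41, with 26 higher and 15 lower (30.6% and 39.8%), and the NAC count 42, with 28 higher and 14 lower (44.9% and 27.2%). Both NAC and vehicle comparisons use the same vehicle chronic libraries.

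A few members had measurable levels in T cells without tumour cells. The rule used these groups and capped each member's mean in them, so the changes below are a description. Cd63 was at 0.690 ± 0.498 RPKM in polyclonal acute and 5.59 ± 0.341 RPKM in polyclonal chronic. It was at 0.140 ± 0.0738 and 8.08 ± 0.897 RPKM in vehicle acute and vehicle chronic. Its log2 changes in these pairs were 2.00 and 2.99, with no overlap in either pair, whereas it fell in OT-I chronic. Ifit3b, an interferon-induced gene, fell from 3.41 ± 0.448 to 0.399 ± 0.322 RPKM in the polyclonal pair and from 1.2 ± 0.375 to 0.0385 ± 0.0334 RPKM in the vehicle pair. Cxcl10 fell from 1.40 ± 0.0713 to 0.467 ± 0.149 RPKM in the vehicle pair. Slc24a5 was lower in both chronic groups (-0.56 and -0.39) and higher under NAC (0.63). Sgce rose in the vehicle pair (1.25), and Tmem51 fell there (-0.83). The melanoma antigen family gene Maged1, the receptor gene Sirpa and Aebp1 were higher in polyclonal chronic (0.95, 0.81 and 0.53). Pianp had the largest change under NAC, from 0.278 ± 0.107 to 2.76 ± 0.241 RPKM (log2 change 1.56). Tmcc2, the lysosomal protease gene Ctsl, the PI3K subunit gene Pik3r3, Hap1 and Apoe were also higher under NAC (0.53, 0.67, 0.73, 0.44 and 0.59). How much these members' OT-I values owe to T cells was not tested. Nor was the part that the low Cd8a and Cd8b1 and the high B cell markers of polyclonal chronic had in its values.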

How the data were processed

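Poly(A) RNA was sequenced in 21 libraries, prepared with a NEBNext Ultra kit per the labels' protocols. Listed in the submitters' processing notes are mm9, edgeR, HTSeq and bcl2fastq 2.17. Aligner, annotation and strand setting are not given in the sources consulted, and so genes that overlap, or lie antisense, may share reads. The authors deposited 1 table of linear RPKM for 13202 genes. Whole reads were recovered from it for 100% of genes within 0.001 reads, which gave the depths. The 21 pairs of libraries within groups differed by more than sampling noise (chi-square per gene 1.52 to 54.6 over genes with 20 or more reads).

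Values were taken as log2(RPKM + 1), and 12630 genes with 1 RPKM or more in at least 3 libraries were tested. All 163 members passed, through the OT-I acute group that chose them. One limma fit (3.58.1, R 4.3.3) held a mean per group, no block and a trend (14 residual degrees of freedom). All tests were two-sided with Benjamini-Hochberg adjustment over all genes. Log2 changes understate those of low genes. The fit was tested on simulated data.

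Members, gene lists and tests were chosen with earlier results of these data known. Named members were the 8 highest in OT-I acute, the 8 highest and 8 lowest called changes without overlap, up to 3 per list by level, those at the rule's limits, the 4 highest without tumour cells and the 6 lowest p in each comparison there. Other members named were chosen after their values were seen, and a few members are not reported here. Symbols were matched to RefSeq (159 directly, 4 through an older symbol), which supplied the promoter sequences. Same-numbered libraries deviated together in the polyclonal experiment (r of 0.446, 0.629 and 0.168), but the labels state no pairing. Chronic replicate 3 correlated more with acute replicate 1 (r of 0.569) than with its own number. Chronic replicates 1 and 3 ran against acute replicate 2 (r of -0.45 and -0.57). Replicate 2 of both polyclonal groups had raised low genes, so these values do not establish a pairing by number.

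Alternatives were a pseudocount of 0.1, other filters, rescaling to a common median or to the pigment genes, fewer libraries in the fit, the replicate block, voom on recovered reads, other forms of the rule and leaving out each library. Added after the data were seen were fits without 3 libraries of raised low genes and with a pseudocount of 0.1 on OT-I libraries alone, the members without Mir6236, and 1 motif.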

Additional observations from a re-analysis of the deposited data

Results flagged for a closer look

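Some members changed in opposite directions in the co-culture and in a pair of groups without tumour cells, and in neither did libraries of the groups overlap. The difference between the comparisons was not tested, the levels without tumour cells are capped by the rule, and chronic stimulation means peptide in one and anti-CD3 in the other. Polyclonal chronic also had low Cd8a and Cd8b1 and high B cell markers. Against the polyclonal pair, log2 changes in the OT-I and polyclonal comparisons were -1.38 and 0.53 for Aebp1, -0.56 and 2.00 for Cd63, 0.37 and -1.67 for Ifit3b, -0.94 and 0.55 for Parvb, -1.52 and 0.81 for Sirpa, and 0.66 and -0.20 for Tbx2. Against the vehicle pair, changes in the OT-I and vehicle comparisons were -1.38 and 0.44 for Aebp1, 1.55 and -0.37 for Apol10b, -0.56 and 2.99 for Cd63, 2.41 and -0.71 for Cxcl10, -0.27 and 0.33 for Dnajc22, 0.37 and -1.07 for Ifit3b, -0.45 and 0.56 for Mmp14, -0.49 and 1.25 for Sgce, and -1.29 and 0.40 for Wwtr1. Cd63 had the highest level without tumour cells among these, 8.08 RPKM in vehicle chronic.

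RNA of the 9 pigment genes was present in libraries that the labels give as free of tumour cells. Their summed RPKM was at least 33.4 in every polyclonal library and at most 11.2 in the vehicle and NAC libraries. Tyrp1, which encodes a melanin synthesis enzyme, had means of 9.67 RPKM in polyclonal acute and 7.16 in polyclonal chronic, and 0 in every vehicle and NAC library. Its source was not tested.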

How the results depend on the processing

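Limits first: 3 libraries a group, 1 tumour line, no label that libraries are separate cultures, and RPKM that share a total with T cell RNA, so that a member can fall in share without a change in tumour cells. Member counts for OT-I chronic against acute (23 higher, 92 lower, median -0.49) became 7 and 34 with a pseudocount of 0.1, 60 and 34 with a median of 0.16 when rescaled to the pigment genes, 39 and 172 with the rule at 10 times (321 members), 4 and 35 with a median of -0.63 at 50 times (56 members), 37 higher with a median of -0.35 for the rule on both groups, and 51 and 47 with a median of 0.0221 for the rule on OT-I chronic. Rescaling to a common median gave a median of -0.40. With the held-out OT-I acute library, which leaves that arm 1 library, the median was -0.45, -0.46 and -0.49. Leaving out single OT-I libraries gave 17 to 21 higher and 79 to 85 lower, with 6648 to 7175 of 12630 genes called. The replicate block, for numbers that pair no OT-I libraries (r of 0.0523, -0.167 and -0.0341), gave 27 higher and 102 lower, with 7947 genes called. It raised the polyclonal count from 17 to 54 and gave 19 for vehicle and 20 for NAC. For these vehicle and NAC counts no share of all genes is at hand. Fits of the compared groups alone gave 5 for the polyclonal pair, 41 for the vehicle pair and 42 for NAC. The vehicle count was 24 with a pseudocount of 0.1, again without such a share. The polyclonal count ran from 12 to 80 over left-out libraries and was 39 without the 3 libraries of raised low genes. Shares of all genes for the counts of 80 and 39 are given above, and for the count of 12 none is at hand. The causes of these shifts were not tested. Of 61 named members over 16 alternatives, a sign reversed, for changes called with or without the alternative, only when rescaled to the pigment genes: Cd63 0.11, Cdh19 0.43, Cald1 0.50, Sdpr 0.28, Amotl2 0.39, Met 0.0202, Ddr2 0.0632, F3 0.53, Maged1 0.47, Sgce 0.17, Plagl1 0.15, Pax3 0.25, Uty 0.22, Pianp 0.59 and Ctsl 0.0757.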
